A study of Arabidopsis thaliana with 8 samples.

Results

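Ribosome biogenesis genes encode the proteins that make, modify, cut and fold ribosomal RNA in the nucleolus before the subunits leave the nucleus. The 35 genes described here, of 32222 nuclear genes counted, are listed by locus and fall into 6 proteins of box C/D ribonucleoproteins, 2 nucleolins, 4 proteins of box H/ACA ribonucleoproteins, 13 factors of the small subunit and 10 of the large subunit. They were chosen by annotated role with their levels in classes of nuclei already known, so differences between classes are given as a description and support nothing by themselves. RNA was measured by single-nucleus mRNA sequencing (Smart-seq2) in nuclei of globular Arabidopsis embryos. All 8 plates, each of 93 sorted nuclei, came from untreated plants of 1 stage, and the plates are the replicates. The labels give the genotype as wild type, and the sorted nuclei came from a Col-0 line with the reporters pWOX2::H2B-GFP and pWOX2::tdTomato-RCI2b. Plants with no transgene served to set the GFP gate. Each sorted nucleus had passed a DAPI and a GFP gate. What limits the nuclei as a model is this sort on a WOX2 promoter reporter and the lack of a label for the cell type of a nucleus.

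Classes of nuclei were therefore rebuilt from the counts, without the 35 genes and without other ribosome genes, and named from fixed markers. Of 534 retained nuclei, 110 were suspensor-like, 25 quiescent-center-and-columella-like, 55 seed-coat-like, 218 embryo-proper-like and 126 unnamed. The embryo-proper-like nuclei were 60 dividing-like, 63 replicating-like, 51 protoderm-like and 44 vascular-like nuclei. Protoderm markers had a mean log2 difference of 0.674 in protoderm-like nuclei against all other retained nuclei, with 6 of 12 detected more often. The same value was 0.809 in dividing-like, 0.716 in replicating-like and 1.216 in seed-coat-like nuclei. These markers thus do not set the protoderm-like class apart from those classes. Other classes also held markers of a second kind. Seed-coat-like nuclei had 0.607 for endosperm markers (5 of 8 detected more often), beside 2.676 for seed coat markers. A suspensor-like cluster of 80 nuclei had 1.173 for quiescent center and columella markers (4 of 11), beside 3.790 for suspensor markers. Replicating-like nuclei had 0.622 for vascular markers (6 of 13), beside 2.795 for replicating markers. The suspensor is the short-lived stalk that connects the embryo proper with maternal tissue, and the seed coat is maternal tissue itself. A retained nucleus held a median of 453004 counts, and the plates held 21257765 to 50998340. Levels are counts per 1000000 counts of nuclear genes in the same sum (CPM), so they are shares of a class's own RNA, not amounts per nucleus. Suspensor markers summed to 3456 ± 770 CPM in suspensor-like nuclei and 269 ± 162 CPM in embryo-proper-like nuclei (SD, n = 8 plates), with 9 of 9 markers read in each. Seed coat markers, which would mark maternal RNA or nuclei, summed to 756 to 2900 CPM per plate in suspensor-like nuclei and 905 to 2527 CPM in embryo-proper-like nuclei, and 13 of 13 were read in each.

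Box C/D proteins carry guide RNAs that direct methylation of ribosomal RNA, and box H/ACA proteins carry those that direct pseudouridylation. Many small subunit factors gather on the nascent transcript as the processome, and large subunit factors then cut and fold the remaining part. Many plant genes for ribosome production carry a telo-box (AAACCCTA) and site II elements (TGGGCC) near the start of transcription. These motifs are known as binding sites of telomere-repeat-binding and TCP factors. They are shown here because the rule that chose the genes did not use sequence.

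Motif matches were common among the 35 genes. In windows of 250 bases before to 50 bases after the annotated gene start, read on both strands of TAIR10.1, 20 of 35 genes (57.1%) held a telo-box, against 6.22% of 27443 protein-coding genes. Site II elements were in 23 of 35 (65.7%), against 15.5% of all protein-coding genes. Both motifs stood in 13 genes (37.1%), against 1.63% of all. The 2 motifs can share at most 1 base at their ends, and TGGGCCCA counts once on each strand. All 6 box C/D genes and both nucleolin genes held a telo-box. NHP2, RRP7, RH36, SWA2 and PUM24 held neither motif, which says only that these letters are not in these windows. The other 38 pathway genes held a telo-box in 28.9% and site II in 44.7%. Of 46 cytosolic ribosomal protein genes picked out by name, 52.2% held a telo-box and 60.9% site II. Of the 18 genes called lower in the suspensor comparison, 16 held either motif, as did 14 of the 17 not called. The matches are descriptions of sequence and not shown binding sites.

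The arrangement of the motifs is shown first in the 150 bases before the annotated start of genes with site II elements, written 5′ to 3′ on the strand of the gene with matches of either motif in capitals (GGCCCA is site II on the other strand).
NOP56 (chr1:20986953-20987102, minus strand): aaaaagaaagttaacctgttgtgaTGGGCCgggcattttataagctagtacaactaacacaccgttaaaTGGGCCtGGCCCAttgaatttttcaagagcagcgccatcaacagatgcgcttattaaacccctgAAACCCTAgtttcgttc
NOP56-like (chr3:4091417-4091566, plus strand): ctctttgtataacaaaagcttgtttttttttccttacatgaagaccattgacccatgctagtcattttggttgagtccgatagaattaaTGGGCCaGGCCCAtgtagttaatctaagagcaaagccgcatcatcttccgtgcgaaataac
NOP58-1 (chr5:9540711-9540860, plus strand): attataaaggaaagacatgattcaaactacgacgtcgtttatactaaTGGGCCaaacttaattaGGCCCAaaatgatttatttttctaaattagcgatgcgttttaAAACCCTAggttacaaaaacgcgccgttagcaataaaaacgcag
RRP5 (chr3:3806744-3806893, minus strand): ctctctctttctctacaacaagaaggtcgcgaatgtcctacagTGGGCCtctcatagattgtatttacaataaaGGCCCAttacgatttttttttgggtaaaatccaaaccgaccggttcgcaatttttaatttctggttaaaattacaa
MPP10 (chr5:26559453-26559602, minus strand): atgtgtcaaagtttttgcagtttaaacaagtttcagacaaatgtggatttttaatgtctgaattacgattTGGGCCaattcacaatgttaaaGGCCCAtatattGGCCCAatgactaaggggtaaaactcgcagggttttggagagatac
BOP1 (chr2:16856772-16856921, minus strand): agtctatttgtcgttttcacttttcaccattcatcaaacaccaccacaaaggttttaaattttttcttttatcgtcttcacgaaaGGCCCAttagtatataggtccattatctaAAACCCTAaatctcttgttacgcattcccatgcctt

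Telo-boxes began at or after the annotated start in 18 of 24 matches among the 35 genes, against 25.2% of 1841 matches in all protein-coding genes. Among the 35 genes the first base of a telo-box had a median of 9.5 bases after the start, against -53 over all protein-coding genes. Of the 24 matches, 20 stood on the gene's own strand, against 57.8% over all protein-coding genes. Site II matches began before the start in 40 of 42 cases, with a median of -64.5. This was near the pattern over all protein-coding genes, where 5730 of 6372 did, with a median of -75. Telo-boxes past the start are shown in stretches of 30 bases, telo-box in capitals.
FIB2 (chr4:13074103-13074132, plus strand): aaaccctgttaAAACCCTAgcttgaaacac
NUC1 (chr1:18098071-18098100, plus strand): tacatgttctaAAACCCTAagctgaaaaat
NUC2 (chr3:6407886-6407915, minus strand): gaaaaaagcaaAAACCCTAcacgcgaaaac
NAP57 (chr3:21156049-21156078, minus strand): actgtcgcctaAAACCCTAaaAAACCCTAg
RRP5 (chr3:3806706-3806735, minus strand): gttcccagaaaAAACCCTAaagttcgtctt

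**Figure D1:**
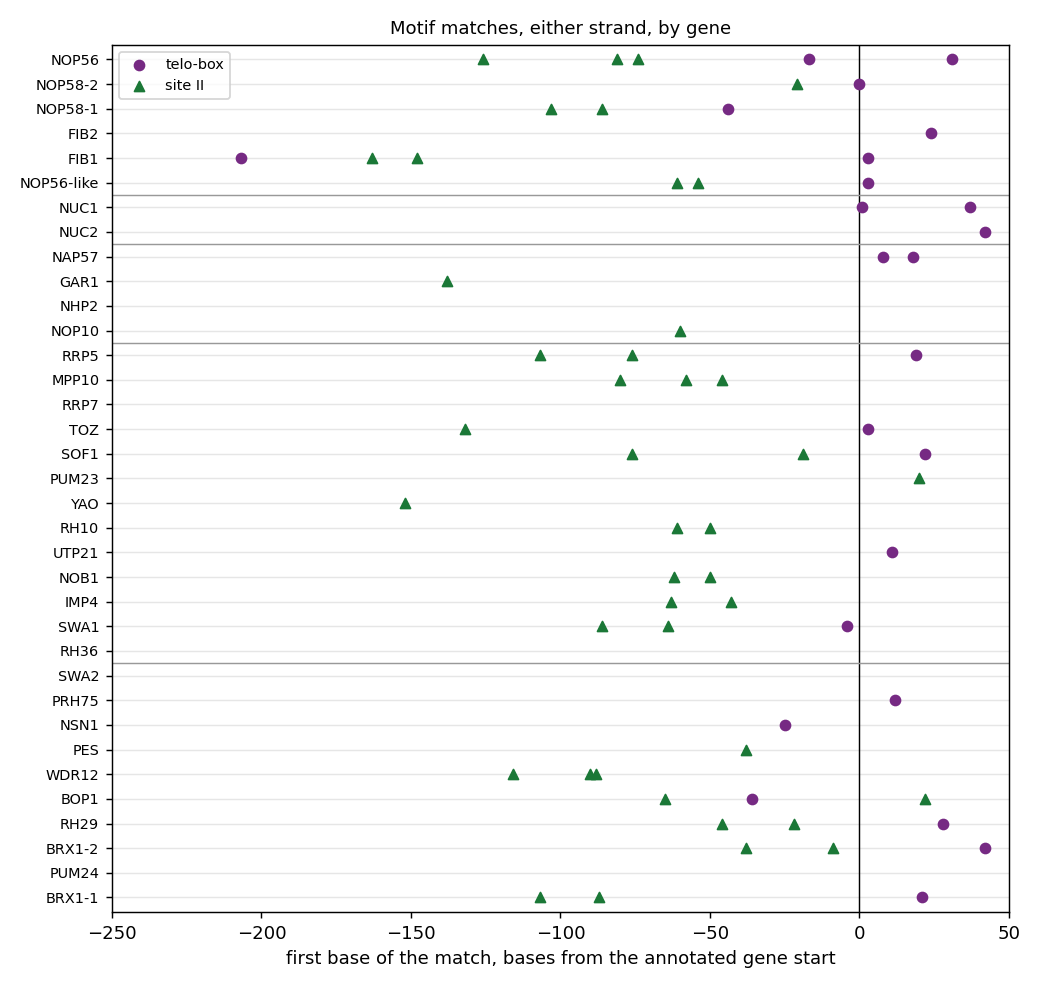
Matches of the telo-box (circles) and site II (triangles) in each gene, either strand, by distance of the first base from the annotated gene start (vertical line), in bases. Telo-boxes gather just past the start (median 9.5, against -53 over all protein-coding genes). Site II elements lie before it (median -64.5), as they do over all protein-coding genes (median -75).

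Suspensor-like nuclei had a far smaller share of their counts in these genes than embryo-proper-like nuclei. Summed over the 35 genes, the level was 1436 to 3392 CPM per plate in suspensor-like nuclei, with a median of 1763, against 7732 to 10477 CPM, with a median of 8919, in embryo-proper-like nuclei. The groups of plates did not overlap. The mean was 1971 ± 635 CPM in suspensor-like nuclei and 8966 ± 1001 CPM in embryo-proper-like nuclei (SD, n = 8), or 22.0% of the embryo-proper-like level. Seed-coat-like nuclei averaged 3352 ± 1578 CPM. The 4 classes of the embryo proper lay close together, with 10186 ± 2169 CPM in vascular-like, 9182 ± 2226 in dividing-like, 8942 ± 1974 in protoderm-like and 8537 ± 1074 in replicating-like nuclei, differences within the spread between plates. Quiescent-center-and-columella-like nuclei averaged 6985 ± 3005 CPM and overlapped the embryo proper. Averaging each nucleus's own CPM gave 1915 CPM for suspensor-like nuclei, against 9587 CPM for embryo-proper-like nuclei.

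**Figure D2:**
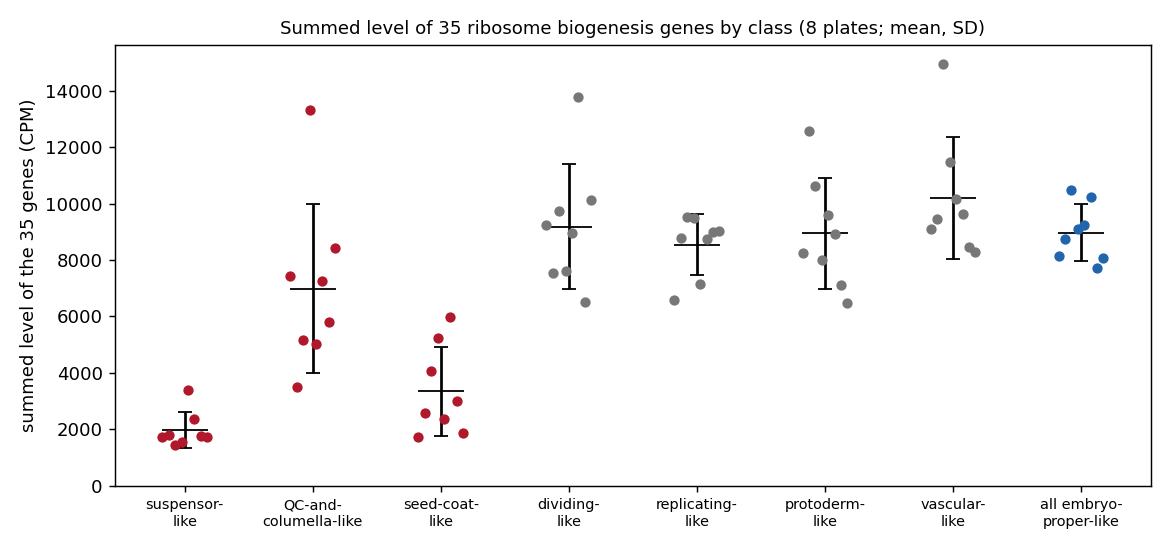
Summed CPM of the 35 genes in each class of nuclei, 1 point per plate, with the mean and SD of 8 plates. Suspensor-like plates lie at 1436 to 3392 CPM, below every embryo-proper-like plate (7732 to 10477 CPM).

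Suspensor-like nuclei had a median of 558090 counts and 3293 features, against 475140 counts and 2355 features in embryo-proper-like nuclei. Whether depth or the number of features bears on the share of these genes was not tested. A suspensor-like nucleus had reads of a median of 8 of the 35 genes and an embryo-proper-like nucleus of 16.5. After thinning every nucleus to 100000 reads the medians were 6 genes in suspensor-like nuclei and 15 in embryo-proper-like nuclei. Of the 110 suspensor-like nuclei, those in the smaller of the class's clusters (30 nuclei on 7 plates) had a median of 607 CPM, and those in the larger (80 nuclei on 8 plates) had 1845 CPM. Suspensor markers summed to 2870 ± 1636 CPM in the smaller cluster (SD, n = 7) and 3485 ± 677 CPM in the larger (SD, n = 8). Both clusters were thus below the embryo-proper-like median of 8636 CPM per nucleus.

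By gene, the mean level in suspensor-like nuclei was below that in embryo-proper-like nuclei for 34 of 35, and for 17 it was lower on each of the 8 plates. The matching shares over all genes tested are not given here, and the median log2 difference of all genes was itself below 0. The suspensor-like level was a median of 18.9% of the embryo-proper-like one over the genes, with a range of 3.77% to 198%. In edgeR's quasi-likelihood test of counts summed per plate, with the plate as a block, 18 of 35 genes were called lower at an adjusted p of 0.05 and 0 were called higher. Over all 13205 genes tested, 6.04% were called lower and 3.42% higher. As the genes were chosen with this contrast known, nothing is read from that comparison. At an unadjusted p of 0.05, 29 were lower and 0 higher, and DESeq2 and limma also called 0 higher. The median log2 difference of the 35 genes was -3.30, beside -0.53 over all genes tested. With equal numbers of nuclei per plate 8 of the 35 were called lower, while DESeq2 called 30 and limma 29. For these settings and the unadjusted p the shares of all genes called are not given, so these counts have no background beside them. For 8 genes the plates did not overlap between the classes, and 2.36% of all genes tested had that pattern.

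**Figure D3:**
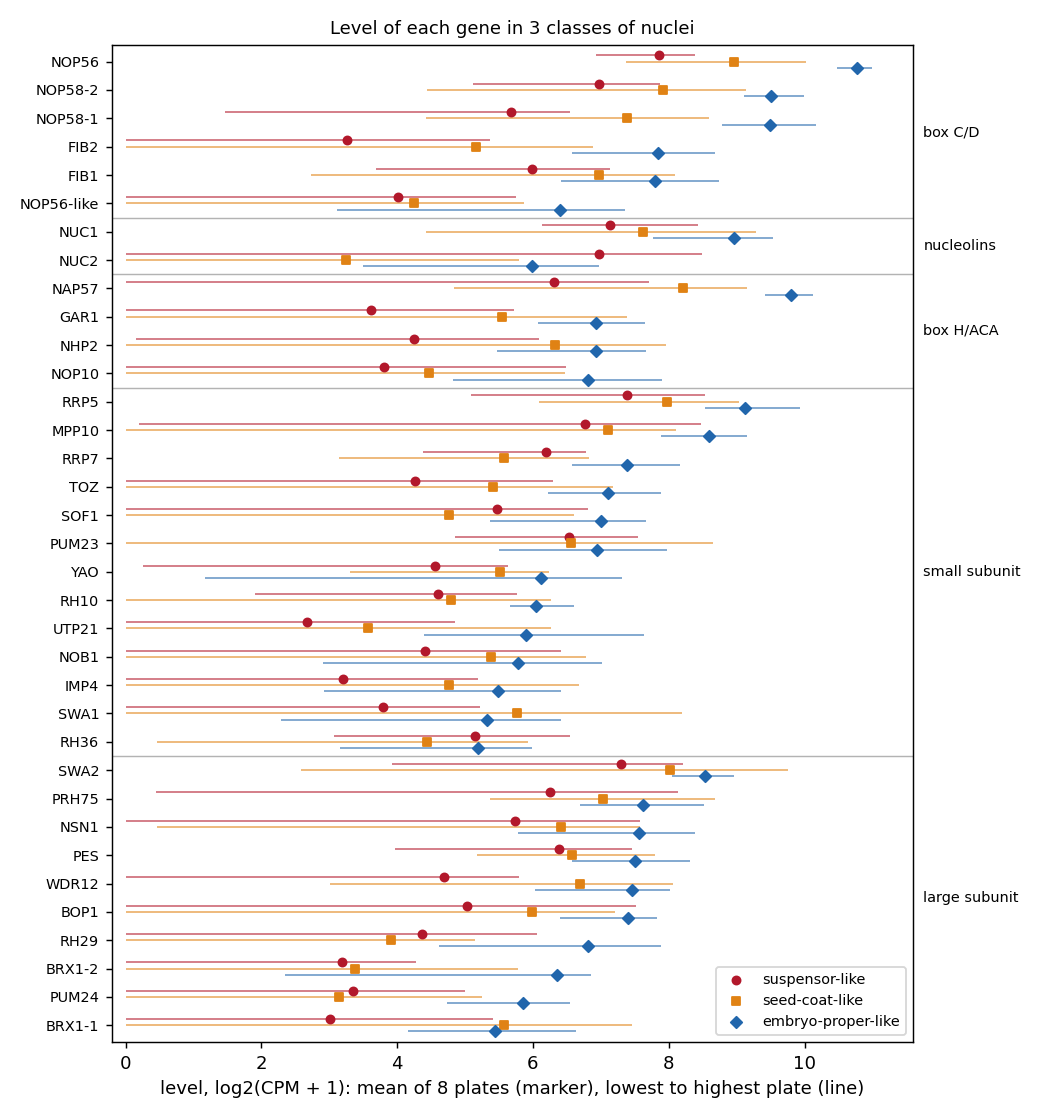
Level of each gene as log2(CPM + 1) in suspensor-like (circles), seed-coat-like (squares) and embryo-proper-like nuclei (diamonds), with the mean of 8 plates as the marker and the lowest to highest plate as the line. NOP56 has the highest level in each class, and NUC2 is the gene whose suspensor-like mean lies above its embryo-proper-like mean.

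Among box C/D proteins all 6 had a lower mean, 5 of them called lower, and together they stood at 13.2% of the embryo-proper-like level. NOP56 (AT1G56110), a scaffold of the particle, was the most abundant of the 35. It had 120 to 332 CPM per plate in suspensor-like nuclei, with a median of 248, against 1419 to 2032 CPM, with a median of 1769, in embryo-proper-like nuclei. No plate overlapped, and the log2 difference was -3.30 ± 0.28 (SE, n = 8 plates). Reads of NOP56 were found in 56.4% of suspensor-like nuclei (95% exact binomial interval 46.6 to 65.8) and 94.95% of embryo-proper-like nuclei (91.2 to 97.5). NOP56-like (AT3G12860), its other Arabidopsis copy, had 0 to 53.0 CPM in suspensor-like nuclei, with a median of 11.3, against 7.67 to 163 CPM, with a median of 71.3, in embryo-proper-like nuclei. It overlapped between the classes and was not called.

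NOP58, the partner scaffold, is encoded by 2 genes of like level in the embryo proper. NOP58-1 (AT5G27120) had 1.76 to 92.2 CPM in suspensor-like nuclei, with a median of 50.5, against 438 to 1150 CPM, with a median of 669, in embryo-proper-like nuclei. NOP58-2 (AT3G05060) had 33.6 to 232 CPM in suspensor-like nuclei, with a median of 112, against 550 to 1016 CPM, with a median of 678, in embryo-proper-like nuclei. Neither gene's plates overlapped, and the log2 differences were -4.35 ± 0.56 for NOP58-1 and -3.01 ± 0.38 for NOP58-2 (SE). On all 8 plates NOP58-2 exceeded NOP58-1 in suspensor-like nuclei, where NOP58-1 made 28.8% of their sum, against 49.6% in embryo-proper-like nuclei. The difference between those shares was not tested.

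Fibrillarin is the methyltransferase of the particle. FIB1 (AT5G52470) had 11.9 to 140 CPM in suspensor-like nuclei, with a median of 49.1, against 84.3 to 425 CPM, with a median of 213, in embryo-proper-like nuclei. These plates overlapped, and the log2 difference was -2.52 ± 0.69 (SE). FIB2 (AT4G25630) had 0 to 40.1 CPM in suspensor-like nuclei, with a median of 0.727, against 94.1 to 408 CPM, with a median of 205, in embryo-proper-like nuclei. No plate overlapped, and the mean FIB2 level was 3.77% of the embryo-proper-like one, the lowest share of the 35. FIB2 was read in 8.18% of suspensor-like nuclei, against 43.1% of embryo-proper-like nuclei. Its fitted log2 difference, -8.25 ± 1.49, rests on plates at or near 0 and is no bound. Per kilobase of exon the fibrillarins were level in the embryo proper, at 161 CPM for FIB1 and 171 CPM for FIB2, while suspensor-like nuclei had 45.4 CPM per kilobase of FIB1 and 6.43 of FIB2.

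Nucleolins act in transcription of ribosomal DNA and in the first steps of processing, and the pair together stood at 47.1% of the embryo-proper-like level. NUC1 (AT1G48920) had 69.2 to 342 CPM in suspensor-like nuclei, with a median of 97.9, against 217 to 744 CPM, with a median of 501, in embryo-proper-like nuclei. It was lower on 7 of 8 plates, with a log2 difference of -2.35 ± 0.49 (SE). NUC2 (AT3G18610) went the other way in its mean. It had 0 to 359 CPM in suspensor-like nuclei, with a median of 133, against 10.3 to 125 CPM, with a median of 58.3, in embryo-proper-like nuclei. The mean was 124 ± 111 CPM in suspensor-like and 62.6 ± 35.1 CPM in embryo-proper-like nuclei (SD, n = 8), and NUC2 was lower on 3 of 8 plates. The fitted log2 difference of 0.03 ± 1.13 (SE) was smaller than its error. Shares of nuclei with a NUC2 read were 30.0% (21.6 to 39.5) in suspensor-like and 21.1% (15.9 to 27.1) in embryo-proper-like nuclei, where the intervals cover counting error only. NUC1 thus made 53.0% of nucleolin CPM in suspensor-like nuclei, against 88.8% in embryo-proper-like nuclei. All NUC2 reads of suspensor-like nuclei came from the larger cluster. In the smaller one 0 of the 30 nuclei had a NUC2 read, which allows a share of up to 11.57% (exact 95% bound).

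**Figure D4:**
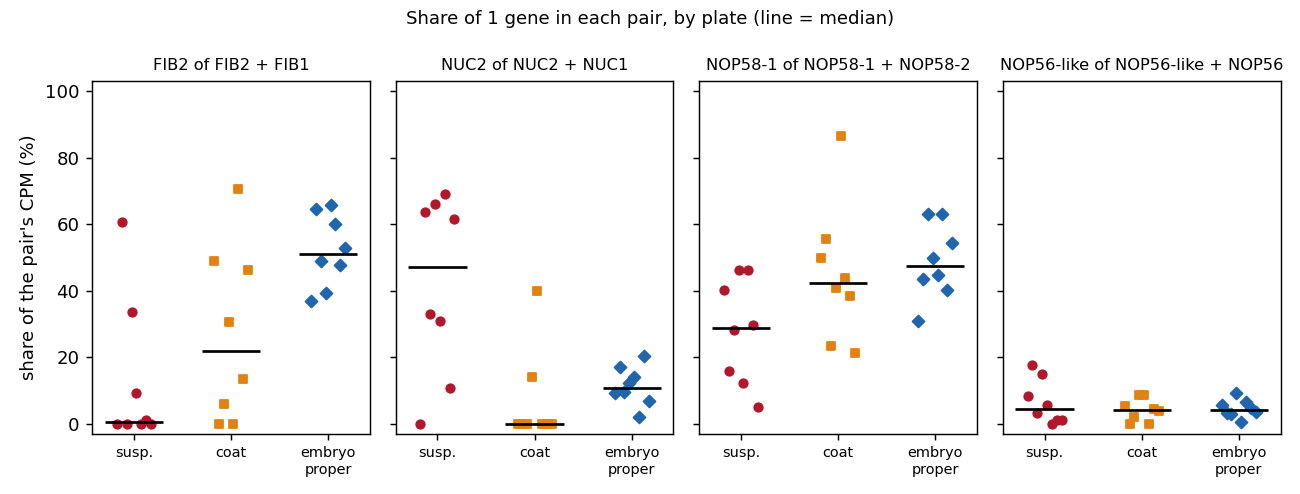
Share of 1 gene in the summed CPM of each pair, in percent, in suspensor-like (circles), seed-coat-like (squares) and embryo-proper-like nuclei (diamonds), 1 point per plate with the median as a line. FIB2 has a lower share and NUC2 a higher share in most suspensor-like plates than in embryo-proper-like plates.

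No stretch of 50 bases, the read length, was shared exactly between the spliced transcripts of FIB1 and FIB2, NUC1 and NUC2, the NOP56 genes, the NOP58 genes or the BRX1 genes, so 0% of the windows of each pair were identical. How reads with shorter matches were assigned to these copies is part of the quantification by the authors.

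Box H/ACA proteins had the lowest suspensor-like level of any role, 9.69% of the embryo-proper-like one, and all 4 were called lower. NAP57 (AT3G57150), the pseudouridine synthase, had 0 to 207 CPM in suspensor-like nuclei, with a median of 48.3, against 683 to 1115 CPM, with a median of 882, in embryo-proper-like nuclei. Its plates did not overlap, and its log2 difference was -4.91 ± 0.83 (SE). GAR1 (AT3G03920), a core protein of the particle, had 0 to 51.8 CPM in suspensor-like nuclei, with a median of 1.07, against 66.1 to 199.5 CPM, with a median of 99.0, in embryo-proper-like nuclei, again without overlap. NOP10 (AT2G20490), another, had 0 to 88.2 CPM in suspensor-like nuclei, with a median of 2.15, against 27.4 to 237 CPM, with a median of 102, in embryo-proper-like nuclei. A single suspensor-like plate held the highest of these NOP10 values, and the next had 6.96 CPM. NHP2 (AT5G08180), which in yeast binds the guide RNA, averaged 18.0 ± 23.8 CPM in suspensor-like and 120.4 ± 51.8 CPM in embryo-proper-like nuclei (SD, n = 8).

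Small subunit factors together stood at 33.7% of the embryo-proper-like level, with 13 of 13 below 0 in log2 difference and 3 called lower, RRP5, MPP10 and TOZ. RRP5 (AT3G11964), which in yeast takes part in the cuts that separate the subunits, had 33.0 to 368 CPM in suspensor-like nuclei, with a median of 165, against 369 to 975 CPM, with a median of 503, in embryo-proper-like nuclei. The ranges came close but did not overlap, and the log2 difference was -2.30 ± 0.45 (SE). MPP10 (AT5G66540), part of the processome, averaged 108 ± 108 CPM in suspensor-like and 387 ± 105 CPM in embryo-proper-like nuclei. TOZ (TORMOZEMBRYO, AT5G16750), a protein of WD40 repeats, averaged 18.2 ± 26.7 CPM in suspensor-like and 136 ± 61.9 CPM in embryo-proper-like nuclei (SD, n = 8). UTP21 (AT4G04940), SOF1 (AT4G28450), RH10 (AT5G60990) and IMP4 (AT1G63780) were lower on all 8 plates but not called, and RRP7 (AT5G38720), NOB1 (AT5G41190), YAO (AT4G05410) and SWA1 (AT2G47990) were lower on 6 or 7. RH36 (AT1G16280), a helicase, and PUM23 (AT1G72320), a pumilio protein of the nucleolus, differed least. RH36 averaged 34.6 ± 28.6 CPM in suspensor-like and 35.7 ± 19.0 CPM in embryo-proper-like nuclei. PUM23 averaged 91.3 ± 52.5 CPM in suspensor-like and 122 ± 64.1 CPM in embryo-proper-like nuclei.

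Large subunit factors stood at 29.8% of the embryo-proper-like level, with 10 of 10 below 0 in log2 difference and 5 called lower, BOP1 (AT2G40360), WDR12 (AT5G15550), the GTPase NSN1 (AT3G07050), SWA2 (AT1G72440) and the helicase RH29 (AT1G77030). PES (AT5G14520), BOP1 and WDR12 form 1 complex that acts on the large subunit. BOP1 had 0 to 183 CPM in suspensor-like nuclei, with a median of 4.99, against 83.1 to 225 CPM, with a median of 162, in embryo-proper-like nuclei. Its highest suspensor-like plate stood apart, with 33.1 CPM on the next. WDR12 averaged 24.9 ± 20.5 CPM in suspensor-like and 175 ± 75.2 CPM in embryo-proper-like nuclei (SD, n = 8), with no overlap. PES averaged 82.7 ± 64.1 CPM in suspensor-like and 180.2 ± 73.3 CPM in embryo-proper-like nuclei and was not called. SWA2, the most abundant of the large subunit factors, had 14.2 to 294 CPM in suspensor-like nuclei, with a median of 156, against 263 to 496 CPM, with a median of 388, in embryo-proper-like nuclei. PRH75 (AT5G62190), a DEAD-box helicase, had 0.369 to 281 CPM in suspensor-like nuclei, with a median of 47.7, against 102 to 365 CPM, with a median of 199.8, in embryo-proper-like nuclei, and was not called. BRX1-1 (AT3G15460), BRX1-2 (AT1G52930) and PUM24 (AT3G16810) averaged 7.05 to 9.25 CPM in suspensor-like nuclei, and their embryo-proper-like means were 42.4 to 80.8 CPM.

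**Figure D5:**
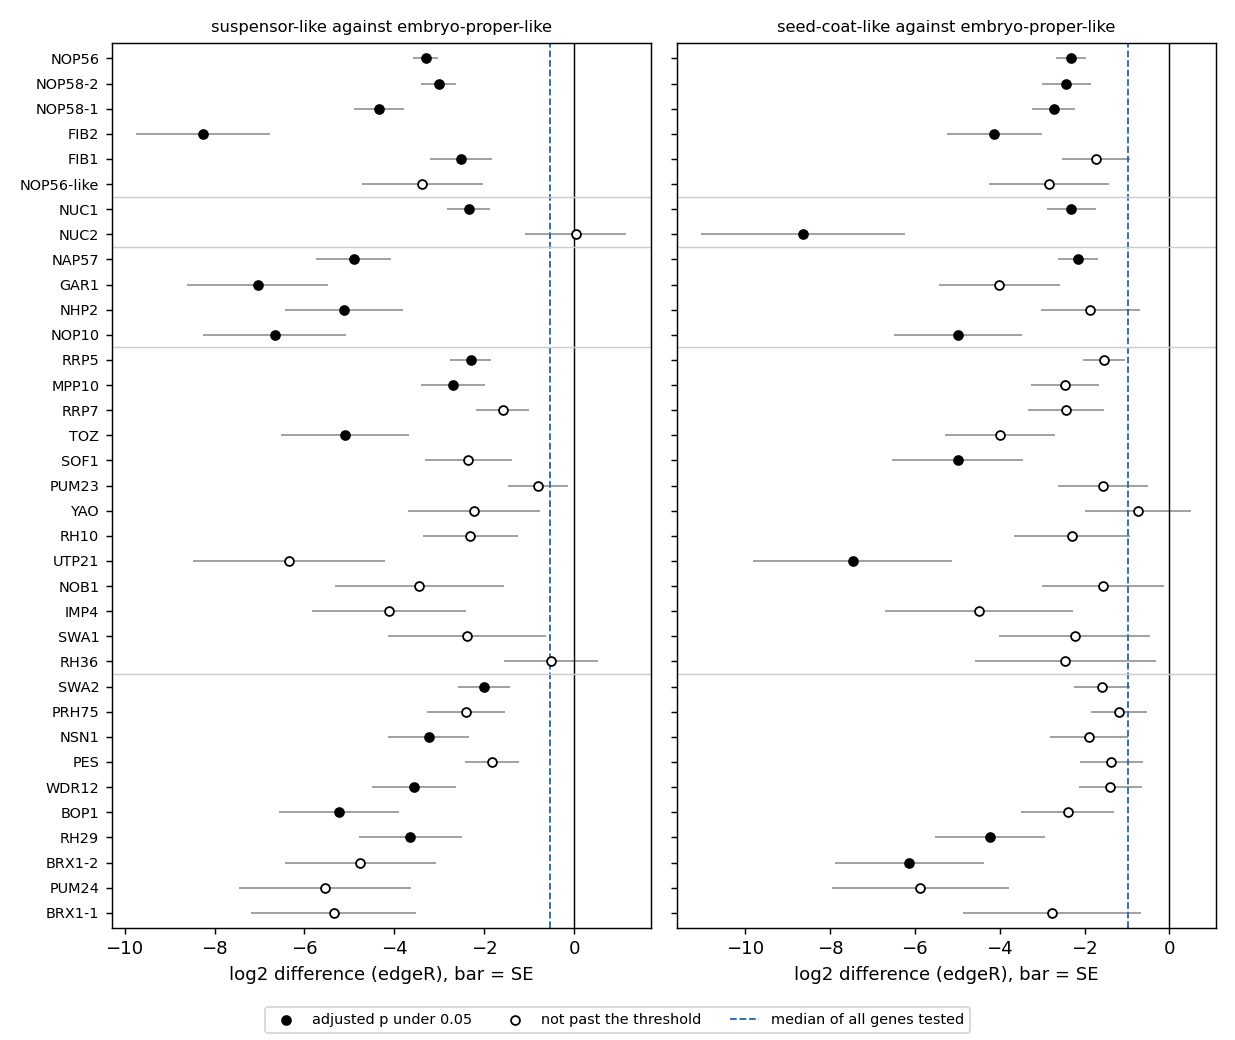
Fitted log2 difference of each gene (edgeR, bars are SE) for suspensor-like and for seed-coat-like nuclei, each against embryo-proper-like nuclei, with filled points past an adjusted p of 0.05 and a dashed line at the median of all genes tested (-0.53 and -0.98). In the suspensor-like panel 34 of 35 points lie below 0, and NUC2 is at 0.03.

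Other genes of the pathway were lower too. Of 38 further ribosome assembly genes, 37 could be tested, 9 were called lower and 0 higher by edgeR in suspensor-like nuclei (23 lower and 0 higher at an unadjusted p of 0.05, 0 higher by DESeq2 and 1 by limma), with a median log2 difference of -2.83 beside -0.53 over all genes. THAL, a processome protein, averaged 40.6 ± 37.5 CPM in suspensor-like and 284 ± 64.4 CPM in embryo-proper-like nuclei (SD, n = 8, edgeR adjusted p = 0.0088). BMS1, a GTPase of the processome, averaged 88.8 ± 68.6 CPM in suspensor-like and 343 ± 94.2 CPM in embryo-proper-like nuclei (adjusted p = 0.00572, edgeR). NOP14 (adjusted p = 0.00853), RID2 (adjusted p = 0.0161) and UTP12 (adjusted p = 0.0292) were also lower in edgeR's test, each on 7 of 8 plates. RNA polymerase I transcribes ribosomal DNA, and only 3 genes of its subunits were picked out by name, NRPA1, NRPA2 and RPAC43. Of these 3, 2 were called lower. The sum of the 3 was 94.1 ± 65.5 CPM in suspensor-like and 399.9 ± 149 CPM in embryo-proper-like nuclei. The 46 cytosolic ribosomal protein genes were also picked out by name, and the list need not be complete. Of these, 25 of 39 tested were called lower and 0 higher (0 at an unadjusted p of 0.05, and 0 by DESeq2 and limma). Over all 13205 genes of the same edgeR fit, 6.04% were called lower and 3.42% higher. The sum of the 46 was 4108 ± 1056 CPM in suspensor-like and 12216 ± 3842 CPM in embryo-proper-like nuclei.

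Seed-coat-like nuclei also had a smaller share of their counts in these genes. The level was below that of embryo-proper-like nuclei for 33 of 35 genes, at a median of 37.9% of it, and lower on all 8 plates for 18. Matching shares over all genes tested are not given here either. By edgeR, 12 were called lower and 0 higher (23 and 0 at an unadjusted p of 0.05), beside 4.39% of 12747 genes tested called lower and 1.47% higher, and the median log2 difference was -2.43 beside -0.98 over all genes. The genes called were NOP56, NOP58-1, NOP58-2, FIB2, both nucleolins, NAP57, NOP10, UTP21, SOF1, RH29 and BRX1-2. NOP56 averaged 495 ± 301 CPM in seed-coat-like and 1752 ± 231 CPM in embryo-proper-like nuclei (SD, n = 8). NOP56, NOP58-1 and NAP57 did not overlap between the classes, a pattern that 0.941% of all genes tested had. NUC2 averaged 8.50 ± 19.1 CPM in seed-coat-like and 62.6 ± 35.1 CPM in embryo-proper-like nuclei, and was called lower. The fits shared the embryo-proper-like nuclei as the reference, and 8 genes were called lower in both. Shares of nuclei with a read did not follow the CPM here, since the median gene was read in 43.6% of nuclei of the seed-coat-like class, against 43.1% in the embryo-proper-like class, at a median of 655591 counts and 4528 features in seed-coat-like nuclei. After thinning to 100000 reads the median was 34.5% for seed-coat-like and 37.6% for embryo-proper-like nuclei. One plate gave 26 of the 55 seed-coat-like nuclei. The count of calls was 7 without plate 1, 5 without plate 2, 6 without plate 3, 12 without plate 4, 7 without plate 5 and 6 without plate 8. With equal numbers of nuclei it was 0, with limma 4, and without the plate block 3.

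In quiescent-center-and-columella-like nuclei, the founders of the root tip, the genes varied widely over only 2 to 6 nuclei per plate. By edgeR 8 were called lower and 0 higher, but 38.7% of 8862 genes tested were called lower and 0.135% higher, with a median log2 difference of -4.94 over all genes and -3.29 over these. Mean levels were below those of embryo-proper-like nuclei for 26 of 35 genes and above for 9. RRP5 averaged 913 ± 1047 CPM in quiescent-center-and-columella-like and 558 ± 201 CPM in embryo-proper-like nuclei, and NAP57 407 ± 424 CPM in quiescent-center-and-columella-like and 895 ± 182 CPM in embryo-proper-like nuclei (SD, n = 8). The count of calls was 5 without plate 3, 4, 5 or 7, was 0 with equal numbers of nuclei or without the plate block, and 1 with limma and 20 with DESeq2.

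Dividing-like nuclei, which express mitotic genes, did not differ by a call from the other embryo-proper-like nuclei. edgeR called 0 of the 35 lower and 0 higher, beside 1.44% of 9908 genes called lower and 0.787% higher. At an unadjusted p of 0.05, 1 was lower and 1 higher, and DESeq2 and limma called 0 in either direction. NAP57 had 694 to 2858 CPM per plate in dividing-like nuclei, with a median of 1212, against 479 to 998 CPM, with a median of 699, in the other embryo-proper-like nuclei. NAP57 was higher on 7 of 8 plates, as NOP56 and UTP21 were each lower on 7 of 8, and its log2 difference of 0.92 ± 0.36 (SE) did not pass the threshold in edgeR (adjusted p = 0.193). Box H/ACA proteins together averaged 1851 ± 830 CPM in dividing-like and 1031 ± 249 CPM in the other embryo-proper-like nuclei. Most of that difference lay in NAP57, with 1460 CPM in dividing-like and 689 CPM in the other nuclei. In the same order GAR1 averaged 148 and 114 CPM, NOP10 123 and 107 CPM, and NHP2 119.9 and 120.8 CPM. NOP56 averaged 1385 ± 276 CPM in dividing-like and 1890 ± 293 CPM in the other embryo-proper-like nuclei (SD, n = 8).

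Across nuclei, members of different roles varied together to a degree that differed between classes and plates. The sum of box C/D, box H/ACA and nucleolin genes was set against the sum of subunit factors. Their Spearman correlation was 0.33 over 110 suspensor-like nuclei (0.0055 to 0.79 within plates) and 0.28 over 218 embryo-proper-like nuclei (-0.15 to 0.64 within plates). Over 55 seed-coat-like nuclei it was 0.53, and 0.66 within the only plate with enough nuclei. Nuclei share plates and depth, and both sums are parts of the same total, so these are descriptions. With the 38 other pathway genes the 35 had 0.35 over suspensor-like nuclei (-0.55 to 0.65 within plates), against 0.43 over embryo-proper-like nuclei (0.13 to 0.57 within plates). With cytosolic ribosomal protein genes they had 0.47 over suspensor-like nuclei, against 0.30 over embryo-proper-like nuclei. Over seed-coat-like nuclei the 35 had 0.53 with the other pathway genes and 0.38 with the ribosomal protein genes.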

How the data were processed

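Nuclei were sorted into plates and sequenced by Smart-seq2 with single-end reads of 50 bases. The authors trimmed reads with cutadapt 2.6 and quantified them with Kallisto on TAIR10 transcripts, and the deposited tables hold counts per gene and nucleus in whole numbers, without normalization. How transcripts were summed and rounded is not given in the sources used here. Nuclei with at least 100000 counts and 1000 features were retained (46 to 83 per plate), which left out the others of the 744. No nucleus name occurred on 2 plates, and no retained nuclei had identical counts. Reads carried no molecular identifier and may repeat a molecule, so intervals cover counting error alone. Doublets were not searched for, though each well was sorted to receive 1 nucleus. The paper left out a cluster of mixed cell types and few detected genes, which it says may come from aggregated or fragmented nuclei. That step was not repeated here.

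Genes read in at least 5% of nuclei (13532) were clustered without 419 ribosome genes, with 2000 variable genes, 20 principal components, 15 neighbours and Leiden resolution 1 (scanpy 1.11.5, igraph 0.11.9). Clusters were named by the marker class that led in mean log2 difference (0.5 or more, with 3 or more markers detected 10 percentage points more often than elsewhere). Settings were chosen after seeing the data, by how clearly the markers named clusters and not by the 35 genes. Classes were rebuilt here, so they may differ from those of the study.

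Counts of nuclear genes were summed per plate and class and tested with edgeR 4.0.16 (filterByExpr, TMM, quasi-likelihood, two-sided) in R 4.3.3. Each plate held both classes and entered the fit as a block. Adjustment was by Benjamini-Hochberg over all genes tested. SE is the size of the log2 difference over the square root of F. Nothing says that plates came from separate plants, so p-values measure the spread between plates. The other settings tried were DESeq2 1.42.0, limma 3.58.1 (means over nuclei of log2(CPM + 1)), no TMM, no filter, no block, stricter limits on nuclei (200000 counts and 1500 features), equal numbers of nuclei, other clusterings, and each plate left out. The fits were tested on simulated data. Gene starts and sequences came from the RefSeq annotation of TAIR10.1, whose nuclear chromosomes are those of TAIR10, and all 35 loci matched. The 35 genes, the lists and the markers were chosen with earlier results of these data known. Genes given by plate were the box C/D and nucleolin genes, NAP57, the most abundant gene of each other role and of the helicases, and the 10 genes with the lowest p in the suspensor comparison. Gene names are those in common use: NUC1, NUC2 and SWA2 are NUC-L1, NUC-L2 and EDA25 in RefSeq, and genes with no symbol there carry the name of their yeast or plant counterpart. Well index tables were left aside. Python 3.11.15 and pandas 2.3.3 served the rest.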

Additional observations from a re-analysis of the deposited data

Results flagged for a closer look

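A suspensor-like plate stood far from the other 7 for 6 genes, among 38 groups of 8 plates looked at, where chance alone marks about 1 in 20. The highest plate had 53.0 CPM of NOP56-like, with 21.3 on the next. NUC1 had 342 CPM on its highest plate and 196 on the next. For NUC2 the highest plate had 359 CPM and the next 153. PRH75 reached 281 CPM, with 106 on the next plate. NOP10 reached 88.2 CPM, with 6.96 next, and BOP1 183 CPM, with 33.1 next.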

How the results depend on the processing

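None of the 35 genes was called higher in any comparison under any alternative, and none was called lower in dividing-like nuclei. In the suspensor comparison the count of 18 genes called lower became 30 with DESeq2, 29 with limma and 8 with equal numbers of nuclei per plate, ranged from 13 to 19 with each plate left out, and was 16 with the larger suspensor-like cluster alone, an alternative chosen after seeing the data. All 18 were among the calls of DESeq2 and of limma, and 12 were called in every fit that left out a plate. Without the plate as a replicate block it was 13. The quiescent-center-and-columella count of 8 became 20 with DESeq2, 1 with limma, 3 without TMM, 0 without the block, 0 with equal numbers and 5 at resolution 2, with 5 to 9 when a plate was left out. The seed-coat count of 12 became 24 with DESeq2, 4 with limma, 3 without the block and 0 with equal numbers, with 5 to 12 when a plate was left out. The shares of all genes called under each alternative are not given here, so these counts have no background. The cause of these shifts was not tested. NUC2 in suspensor-like nuclei changed sign to -0.31 at resolution 2, -0.70 with the ribosome genes in the clustering, and, with each plate left out, ranged from -0.50 to 0.58, below 0 without plate 4 (-0.09), 5 (-0.31), 6 (-0.50) or 8 (-0.04). Of 270 alternative log2 differences of named genes in the suspensor comparison, 234 kept direction and side of the threshold. All 8 summed levels moved by less than 1 SD when each nucleus was weighted equally. Rarer genes rest on few nuclei, such as UTP21, read in 5.45% of suspensor-like nuclei. Whether depth bears on such shares was not tested. Without TMM the median of all genes in the suspensor comparison was -0.20, and that of the 35 genes -2.97. With equal numbers of nuclei the median of all genes in the suspensor comparison was 0.49, and that of the 35 genes was -2.67.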

Other observations

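Ribosomal RNA features, which an mRNA protocol reads only in part, summed to 13912 ± 5980 CPM in suspensor-like and 31162 ± 11023 CPM in embryo-proper-like nuclei (SD, n = 8). Seed-coat-like nuclei had 12871 ± 6138 CPM. The 126 unnamed nuclei averaged 5820 ± 1555 CPM of the 35 genes, and their clusters differed, with a median per nucleus of 7421 CPM in one of 59 nuclei, 2546 CPM in one of 47 and 5775 CPM in one of 20 with small heat shock protein genes among its leading genes.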
